A study of Mus musculus with 2 samples.

Results

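Cells with few Scx and Tnmd transcripts and with fibroblast transcripts were chosen from the library labelled mutant, and they made up 1150 of its 2592 cells (44.4%, exact binomial 95% interval 42.4 to 46.3). Members were selected on unique molecular identifier (UMI) counts, which count each captured mRNA molecule once, by a rule of 9 steps. A member held at least 5 UMIs over Ly6a, Cd34, Dpt, Lum and Col3a1, fewer than 30 Scx UMIs per 10000, fewer than 3 Tnmd UMIs and fewer than 2 Pi16 UMIs. It held fewer than 5 UMIs over the immune genes Tyrobp, Fcer1g, Laptm5 and Ptprc, fewer than 3 over the mural genes Myh11, Rgs5 and Notch3, and fewer than 2 over the endothelial genes Cdh5, Cldn5 and Tie1. It also held fewer than 4 UMIs over the cycling genes Mki67, Top2a, Cdk1 and Birc5, and under 10% of its UMIs were from haemoglobin genes.

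The series consists of 2 libraries of single cells released by enzymes from the fore- and hindlimb tendons of mouse pups at 7 days of age, with 2 pups pooled in each library and without scraping the tendon surface. In the mutant (Tgfbr2 f/-;ScxCre in the study's text, mutant in the labels) a null Tgfbr2 allele was carried by every cell beside a floxed allele, and deletion of the floxed allele by ScxCre, a Cre recombinase driven by Scx regulatory sequence, is limited to cells that have expressed Scx. Both groups also had 2 fluorescent reporters, ScxGFP for tendon cells and Ai14 Rosa26-tdTomato for cells with Cre activity. The control library is labelled wild-type in its title and genotype and Het in its description, its alleles were not given further in the labels, and it is called wild-type here. The strain was not given in the sources used here. With 1 library for each genotype there was no spread between replicates and no test could be run. Every interval below covers counting error only, and genotype, pool of pups and library cannot be told apart.

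Tendons are built by tenocytes, which make aligned type I collagen fibrils together with small proteoglycans such as fibromodulin. The transcription factor Scleraxis (Scx) marks the tendon lineage from the progenitor stage on, and the membrane protein tenomodulin (Tnmd) marks its mature cells. TGF-beta ligands signal through a complex that needs the type II receptor encoded by Tgfbr2. Fibroblasts of the sheaths and of the connective tissue around tendons carry Cd34, Ly6a (Sca-1), Pdgfra and dermatopontin (Dpt) and keep Scx low. Low Scx by itself therefore does not separate a tenocyte that lost tendon genes from a fibroblast that never had them.

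The same rule was met by 336 of the 2364 wild-type cells (14.2%, 12.8 to 15.7). These cells served as the closest comparison, and 3 further sets were formed. They were 412 mutant Scx-low cells that met the rule except for keeping at least 3 Tnmd UMIs, 205 mutant Scx-high cells and 1100 wild-type Scx-high cells, the latter both with at least 30 Scx UMIs per 10000. Members were shallower than the other sets, at 2614.5 UMIs and 1223.5 genes in the median cell (915 to 11571 UMIs), against 3335.5 UMIs in the wild-type cells of the same rule, 3242 in the Tnmd-keeping cells, 3939 in the mutant and 4233.5 in the wild-type Scx-high cells. Only 2 barcodes occurred in both libraries, 1 of them a member.

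The steps of the rule removed very different numbers of mutant cells. The fibroblast genes left 2092 cells, the Scx limit 1910, the Tnmd limit 1448 and the Pi16 limit 1234, and the remaining limits 1150. The Tnmd limit alone kept out 412 cells that passed every other step, the Pi16 limit 205, and the Scx limit 21. Among members, 960 had no Scx UMI and 751 no Tnmd UMI. Just inside the limits were 7 members at 20 to 30 Scx UMIs per 10000, 153 members with 2 Tnmd UMIs, 114 with 1 Pi16 UMI and 17 with 5 marker UMIs. Just outside were 4 cells at 30 to 40 Scx UMIs per 10000, 92 cells with 3 Tnmd UMIs, 53 with 2 Pi16 UMIs and 8 with 4 marker UMIs. Cells were thus sparse at the Scx limit and frequent on both sides of the Tnmd limit. When each cell was first thinned to 1500 UMIs, 1229 of 2264 mutant cells (54.3%) and 402 of 2165 wild-type cells (18.6%) met the rule, and with no Tnmd UMI allowed the shares were 29.0% and 9.05%.

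Tgfbr2, the targeted gene (chromosome 9, 116084293 to 116175360, minus strand, GRCm38), was read at 69.7 UMIs per 1000000 (CPM) in the members and 59.2 CPM in the wild-type cells of the same rule, from 229 and 72 UMIs. It stood at 62.1 CPM in the Tnmd-keeping cells, 50.3 CPM in the mutant Scx-high cells and 29.7 CPM in the wild-type Scx-high cells. The ratio of members to wild-type cells of the same rule was 1.18 (95% interval 0.899 to 1.56), and the interval included 1. After thinning to 1500 UMIs, 9.56% of members and 7.26% of those wild-type cells had a Tgfbr2 UMI, against 11.1% of mutant and 14.2% of wild-type immune cells. The reads were taken from 3′ ends and carry no information on whether the floxed part of the gene was lost.

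The 5 genes that chose the members are given as a description. Lum, a small proteoglycan of collagen fibrils, was at 3097 CPM in the members, 1522 CPM in the wild-type cells of the same rule and 89.5 CPM in the wild-type Scx-high cells. Col3a1, the type III collagen of loose connective tissue, was at 7658, 7508 and 526 CPM in the same order. Dpt was at 616, 439 and 8.21 CPM, Ly6a at 896, 1024 and 31.7 CPM, and Cd34 at 642, 744 and 21.3 CPM. All members had a Col3a1 UMI, 1012 had Lum, 785 Cd34, 714 Dpt and 600 Ly6a, and the summed marker count per cell ran from 5 to 152 with a median of 33. Scx was at 114 CPM in the members and 326 CPM in the wild-type cells of the same rule, and Tnmd at 168 and 129 CPM.

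Fibroblast genes that the rule did not use were present too. Pdgfra, the receptor that marks fibroblasts, was at 80.3 CPM in the members and 7.55 CPM in the wild-type Scx-high cells. Gsn (gelsolin) was at 1624 and 202 CPM, Clec3b (tetranectin) at 710 and 117 CPM, and Serping1, the C1 inhibitor, at 804 and 48.6 CPM. Of the 16 genes on this list 9 were at least 2-fold higher in the members than in the wild-type Scx-high cells and 4 were lower (Mfap4, Col6a1, Col6a2, Thy1), where 19.7% of all genes counted were higher and 7.64% lower. Against the wild-type cells of the same rule none was higher and 4 were lower (Clec3b, Cd248, S100a4, Thy1), where 3.56% of all genes counted were higher and 6.45% lower. The split against the Scx-high cells depended on the scaling, as described with that comparison. Tenocyte markers were low but not at 0. Fmod was at 177 CPM in the members and 5453 CPM in the wild-type Scx-high cells, Mkx, a tendon transcription factor, at 11.6 and 130.3 CPM, and Col11a1 at 81.6 and 956 CPM. The label of Scx-low Tnmd-low fibroblast-like cells fits these markers for most members, with the exceptions given next. A group of 162 members with high Eln, described below, fits it less well. Its cells held Fmod in 61.1%, Ly6a in 25.9% and Lum in 94.4%.

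A small number of members carried genes of other cell types. At least 5 UMIs of the Schwann cell list were found in 17 members, of the adipocyte list in 16, of the osteoblast list in 18 and of the muscle list in 1. Fabp4, a fatty acid carrier of adipocytes, had 727 UMIs in 46 members, 36.3% of them in 1 cell. Spp1 (osteopontin) made up 404 of the 428 UMIs of the osteoblast list, and Ibsp, Sp7 and Dmp1 were at 0. In the mural list 41 members held at least 5 UMIs, most of them from Tagln. Immune cell genes were near 0, with 132 UMIs over 12 genes and Mrc1 at 0, and the epithelial list had 3 UMIs. The part of these cells in the results below was measured by leaving out every cell with at least 5 UMIs of the Schwann, adipocyte or muscle lists, which kept 1116 members.

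The most abundant transcripts of the members were those of a matrix-making mesenchymal cell. Counts from 3′ ends do not scale with transcript length, so levels of different genes are read on 1 scale. Malat1, a nuclear RNA, was at 13325 CPM, followed by Sparc, a collagen-binding matricellular protein, at 9929 CPM, Col1a1 at 9388 CPM, decorin (Dcn) at 8258 CPM and Col3a1 at 7658 CPM. Lgals1 was at 6857 CPM, Col1a2 at 6390 CPM, the growth factor pleiotrophin (Ptn) at 5125 CPM, Itm2a at 5007 CPM, elastin (Eln) at 4803 CPM and the imprinted RNA Meg3 at 4625 CPM. The other 14 of the 25 most abundant genes were Eef1a1 and 13 ribosomal protein genes led by Rpl41 at 7331 CPM. Type I collagen was thus among the leading transcripts of these cells, but it stood far below the wild-type Scx-high cells, where Col1a1 was at 75019 CPM and Col1a2 at 47408 CPM.

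**Figure D1:**
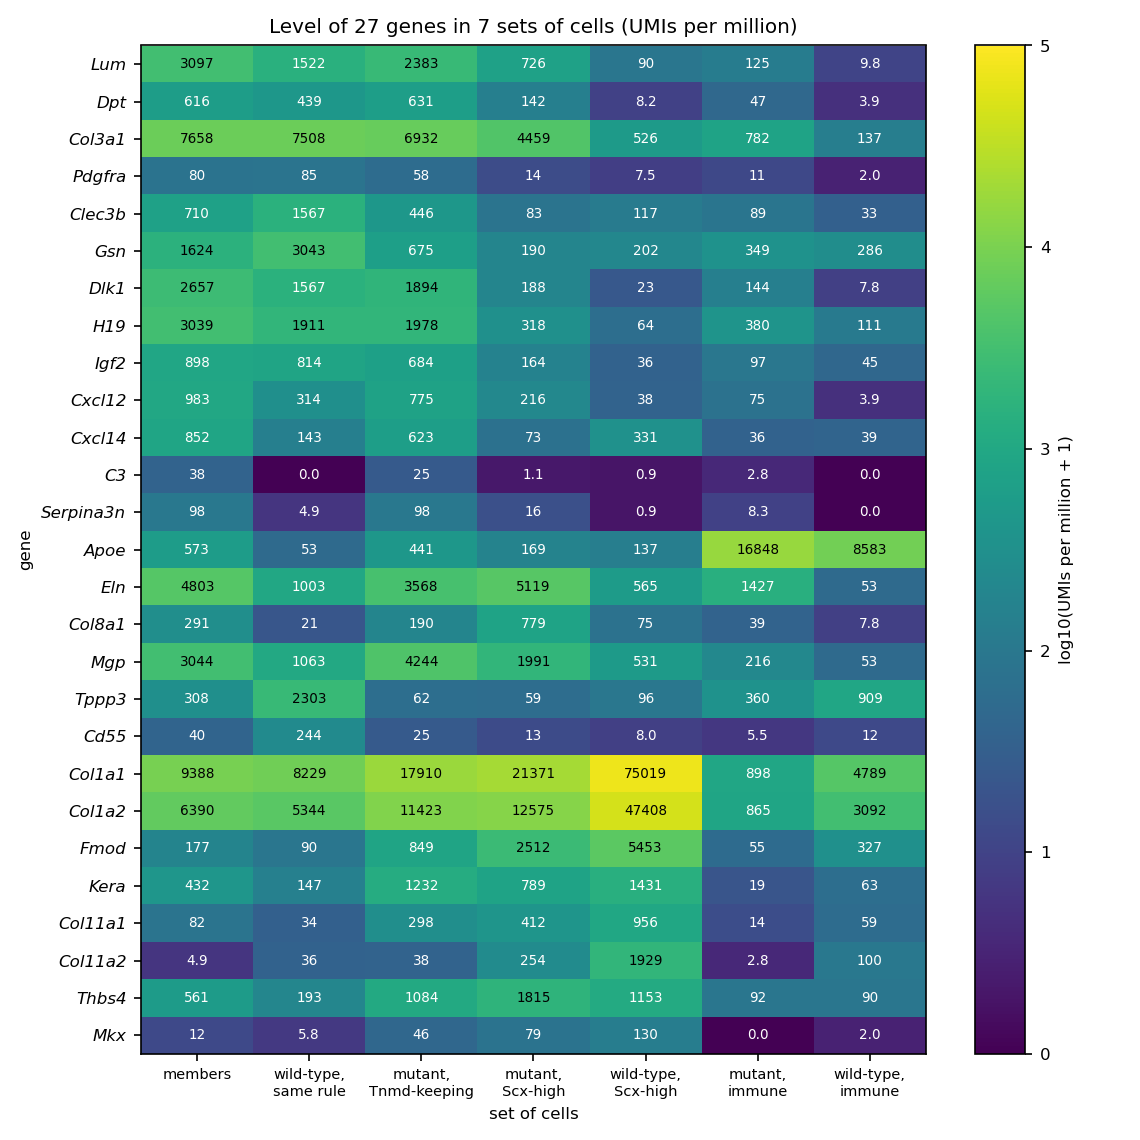
Level of 27 genes (rows) in 7 sets of cells (columns) as summed UMIs per 1000000, printed in each square and colored on the scale log10(CPM + 1). The first 2 columns, the members and the wild-type cells of the same rule, are alike for Col1a1 (9388 and 8229) and Igf2 (898 and 814), and far from the wild-type Scx-high column for Dlk1 (2657, 1567 and 22.9).

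Members were compared with wild-type cells of the same rule to ask how mutant Scx-low cells differ from the fibroblasts that the control tendons also hold. Elastin, Cxcl14, Apoe and Col8a1 were several-fold higher in the members, and a set of genes of sheath and adventitial fibroblasts, Tppp3 among them, was several-fold lower. A gene was counted where either set averaged 0.1 UMI or more in a cell, and of 4665 such genes 166 were at least 2-fold higher (3.56%) and 301 at least 2-fold lower (6.45%) in the members. The median log2 ratio was -0.07. Type I collagen was nearly the same, with Col1a1 at 9388 CPM in the members and 8229 CPM in the wild-type cells, a ratio of 1.14 (1.12 to 1.17). This likeness holds for 2 sets cut by the same rule, which used no collagen gene other than Col3a1. Col1a1 was also found in 30.6% of thinned mutant and 83.1% of thinned wild-type immune cells. The part of RNA from other cells in the 2 levels was not tested.

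Eln (chromosome 5, 134702593 to 134747323, minus strand) was at 4803 CPM in the members and 1003 CPM in the wild-type cells of the same rule, a ratio of 4.79 (4.52 to 5.08). The ratio was 3.30 with thinning before the rule and 9.95 with 0 Tnmd UMIs. The difference lay in few cells. An Eln UMI was found in 32.1% of members and 53.3% of the wild-type cells, and after thinning to 1500 UMIs in 25.8% (23.1 to 28.6) and 36.0% (30.6 to 41.7). Thinned counts of at least 10 were found in 10.5% of members (8.72 to 12.6) and 1.98% of the wild-type cells (0.73 to 4.26). In the wild-type cells 29.7% of all Eln UMIs came from 1 cell. Immune cells of the mutant library also held more Eln, at 1427 CPM against 52.8 CPM, with a UMI in 9.19% and 7.94% of them before thinning, and the part of this RNA in the difference was not tested.

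Other genes were higher in the members and more widely spread. Cxcl14, a chemokine of fibroblasts, was at 852 CPM in the members and 143 CPM in the wild-type cells of the same rule, a ratio of 5.95 (5.10 to 6.97), and after thinning it was found in 36.4% and 11.2% of cells. Apoe, an apolipoprotein that macrophages and fibroblasts make, was at 573 and 52.7 CPM, a ratio of 10.9 (8.49 to 14.2), with thinned shares of 29.9% and 5.94%. Crabp1, a carrier of retinoic acid, was at 274 and 56.8 CPM with a ratio of 4.82 (3.77 to 6.26). In immune cells the mutant to wild-type ratio was 0.921 for Cxcl14, 0.62 for Crabp1 and 1.96 for Apoe. Among thinned cells kept out by the Pi16 limit, Cxcl14 was found in 31.2% of mutant and 7.21% of wild-type cells. The shares there were 12.5% and 1.44% for Apoe and 15.6% and 2.4% for Crabp1, so these differences were not limited to the members.

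Col8a1, a short-chain collagen, had 957 UMIs in 144 members and 25 UMIs in 12 wild-type cells of the same rule, a ratio of 14.2 (9.53 to 22.0). Its ratio was 5.68 with thinning before the rule and 23.6 with 0 Tnmd UMIs. Among thinned cells Col8a1 was found in 9.56% of members, 2.97% of the wild-type cells of the same rule and 11.2% of the Tnmd-keeping cells. Among thinned cells kept out by the Pi16 limit it was found in 15.1% of mutant and 1.92% of wild-type cells. The shares were 40.1% and 7.66% in the mutant and wild-type Scx-high cells, so the difference in Col8a1 was not limited to the members. C1qtnf3 had a ratio of 5.46 (4.63 to 6.47), and 27.5% of its wild-type UMIs came from 1 cell. With cells scaled to equal UMIs the ratio of C1qtnf3 was 3.63, and with 0 Tnmd UMIs 11.3. Igfbp2 had a ratio of 6.48 (4.67 to 9.24), which was 2.82 with thinning before the rule. In immune cells its mutant to wild-type ratio was 6.14, on 13 and 3 UMIs. The protease Lgmn had a ratio of 3.75 (3.13 to 4.54) and Tmem176b 3.62 (3.01 to 4.4). Fabp4 was 19.2-fold higher (11.4 to 35.3). Without the cells that carried Schwann, adipocyte or muscle genes the ratio of Fabp4 was 1.15, but Fabp4 is itself on the adipocyte list that removed cells, so a lower ratio was built in.

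Tppp3 (chromosome 8, 105467493 to 105471526, minus strand), a tubulin-binding protein found in tendon sheath and paratenon cells, was at 308 CPM in the members and 2303 CPM in the wild-type cells of the same rule, 7.48-fold lower (6.96 to 8.04). It was found in 22.0% of thinned members and 75.9% of thinned wild-type cells, and in 32.4% of mutant and 43.2% of wild-type immune cells. The share among members was thus below that in immune cells of their own library. Of thinned haemoglobin-rich cells 0 of 71 mutant and 1 of 77 wild-type cells held a Tppp3 UMI. Immune cells may therefore not give a background level for this gene. The mutant to wild-type ratio in immune cells was 0.396 for Tppp3, and 0.193 for Rgcc on 3 and 22 UMIs. Rgcc was 31.1-fold lower (25.2 to 38.7), from 1091 UMIs in 82 wild-type cells against 95 UMIs in 60 members. Hbegf, a growth factor, was 8.36-fold lower (6.89 to 10.2), Ackr3, a scavenging receptor for CXCL12, 6.58-fold lower (5.38 to 8.09) and Fxyd5 6.57-fold lower (5.49 to 7.88). Mustn1 was 12.7-fold, Pthlh 10.9-fold and Krtdap 9.13-fold lower, and Ambn, at 305 UMIs in 19 wild-type cells, had no UMI in the members and was at least 275-fold lower. Of the Ambn UMIs 38.4% came from 1 wild-type cell.

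Several genes lower in the members were also lower in immune cells of the mutant library, Tppp3 and Rgcc among them. Ppia was 10.4-fold lower, Rps6 6.82-fold lower and Gng5 6.44-fold lower in the members. The mutant to wild-type ratio in immune cells was 0.0735 for Ppia, 0.205 for Rps6 and 0.249 for Gng5. Ppia, Rps6 and Gng5 have near-identical copies in the genome, and their counts are uncertain. The part of library-wide differences in these results was not tested.

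**Figure D2:**
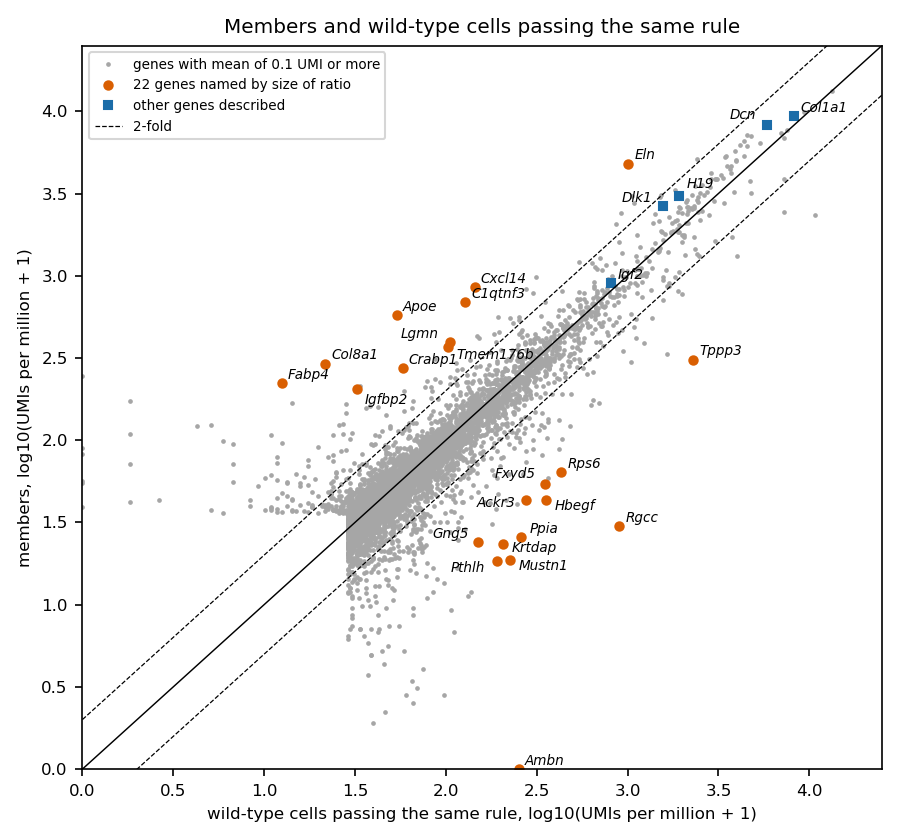
Summed UMIs per 1000000 of the 1150 members (vertical axis) and of the 336 wild-type cells passing the same rule (horizontal axis), both as log10(value + 1), for the 4665 genes counted, with lines of equality and of 2-fold difference. Most genes lie between the 2-fold lines, Eln, Cxcl14 and Apoe lie above them and Tppp3 and Rgcc below, and Ambn lies on the horizontal axis because the members had no UMI.

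Leaving aside the markers of other cell types, secreted immune mediators had the highest median of the lists with at least 5 genes counted. Of 10 chemokine and cytokine genes counted, 6 were at least 2-fold higher in the members and none was lower. Of all genes counted 3.56% were higher and 6.45% lower. The median log2 ratio of the list was 1.43, against -0.07 over all genes. Cxcl12, which holds hematopoietic cells in stroma, was at 983 CPM in the members and 314 CPM in the wild-type cells of the same rule, a ratio of 3.13 (2.81 to 3.49), and after thinning in 59.8% and 28.7% of cells. Il33, an alarmin, had a ratio of 3.47 (2.13 to 6) and Ccl7 a ratio of 4.57 (2.89 to 7.61), with 35% of its wild-type UMIs in 1 cell. Spp1, with 404 and 5 UMIs, and Ccl11, with 119 and 19, were the others beside Cxcl14. Background differed here too: Cxcl12 was found in 7.41% of thinned mutant and 0.676% of thinned wild-type immune cells. Among thinned cells kept out by the Pi16 limit it was found in 51.6% of mutant and 26.9% of wild-type cells.

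Complement genes followed. Of 15 complement and serpin genes counted, 8 were at least 2-fold higher and 1 lower, with a median log2 ratio of 1.03. The shares over all genes counted were 3.56% higher and 6.45% lower. C4b was at 95 CPM in the members and 11.5 CPM in the wild-type cells of the same rule, Cfb at 60.6 and 9.87 CPM, and Serpina3n, an acute-phase inhibitor, at 98.0 and 4.94 CPM. C3, the central complement protein, had 126 UMIs in 80 members and none in the wild-type cells, at least 15.5-fold higher. The proteases C1s1 and C1ra had ratios of 2.49 and 2.04. Cfd, an adipocyte product, had 292 UMIs in 8 members with 76.4% of them in 1 cell. Cd55, which protects cells from complement, was the gene that was lower, at 39.9 and 244 CPM.

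Adventitial fibroblast genes had the lowest median, again leaving aside the markers of other cell types. Of all genes counted 6.45% were at least 2-fold lower in the members and 3.56% higher. Of 15 genes counted on this list, 10 were at least 2-fold lower and none higher, with a median log2 ratio of -1.70. Beside Tppp3, Cd55 and Ackr3 they were Dpp4, Sema3c, Anxa3, Creb5, Has1, Igfbp6 and Cd248. Igfbp6, a binding protein with preference for IGF2, was at 334 CPM in the members and 1651 CPM in the wild-type cells of the same rule, 4.94-fold lower (4.59 to 5.32), with a mutant to wild-type ratio of 0.244 in immune cells on 10 and 58 UMIs. Has1, a hyaluronan synthase, was 7.70-fold lower (5.13 to 11.8) and Dpp4 9.57-fold lower (5.08 to 19.3). The rule had taken cells with 2 or more Pi16 UMIs, a marker of the same fibroblasts, out of both sets. Of 7 integrin genes 4 were at least 2-fold lower (Itga5, Itga6, Itga9, Itgb3), and of 16 annexin and S100 genes 6 were, among them Anxa1 at 420 and 1108 CPM and S100a4 at 555 and 1366 CPM.

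Tendon and matrix genes were mixed. Of 19 tendon genes counted 7 were at least 2-fold higher and 3 lower in the members, with a median log2 ratio of 0.36. Of all genes counted 3.56% were higher and 6.45% lower. Kera (keratocan) was at 432 CPM in the members and 147 CPM in the wild-type cells of the same rule, Thbs4 at 561 and 193 CPM and Comp at 233 and 85.6 CPM, while Tnxb was at 131 and 420.5 CPM and Prelp at 102 and 359.6 CPM. Tendon genes were also read in immune cells, and the part of RNA from other cells was not tested. Thinned immune cells held a Col1a1 UMI in 30.6% of cells of the mutant and 83.1% of the wild-type library, and a Fmod UMI in 4.63% and 21.6%. For Thbs4 the shares were 6.48% and 5.41%, so the libraries did not differ alike for all of these genes. Fmod was found in 11.3% of thinned members (9.45 to 13.4) and 10.9% of thinned wild-type cells of the same rule (7.62 to 15), the latter below the share in wild-type immune cells, and that share cannot be told from background. Kera was found in 26.4% of thinned members and 14.2% of thinned wild-type cells of the same rule, and in 1.85% and 4.73% of the immune cells of the same libraries.

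The elastic fibre list had 4 of 17 genes at least 2-fold higher, which were Eln, Fbn2, Lox and Mgp, and 1 lower, Loxl2. Of all genes counted 3.56% were higher and 6.45% lower. Mgp, the matrix Gla protein that holds back calcification, was at 3044 CPM in the members and 1063 CPM in the wild-type cells of the same rule. Fbn1, the microfibril protein of mature tissue, was at 372 and 731 CPM. Of 20 proteases and inhibitors 5 were at least 2-fold higher and none lower, among them Mmp2 at 824 and 276 CPM, and Mmp13 with 182 UMIs in 31 members and none in the wild-type cells. Of 32 genes for collagen folding and secretion none was 2-fold higher and 2 were lower, with a median of -0.01.

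Of the TGF-beta pathway few ligand, receptor and Smad genes passed 2-fold, near the share of all genes counted (3.56% higher and 6.45% lower). Of 11 ligands, receptors and Smads counted, Tgfb2 was the 1 higher gene, at 224 CPM in the members and 92.2 CPM in the wild-type cells of the same rule, and Tgfb1 the 1 lower gene, at 17.0 and 36.2 CPM. Of 16 TGF-beta target genes 2 were at least 2-fold higher and 3 lower, with a median log2 ratio of -0.37. Postn (periostin) was at 2405 and 917 CPM and Lox (lysyl oxidase) at 210 and 75.7 CPM, whereas Acta2 (smooth muscle actin) was at 88.9 and 235 CPM, Cdkn1a at 61.5 and 221 CPM and Loxl2 was the other lower gene. In immune cells the mutant to wild-type ratio of Postn was 20.2, on 114 and 8 UMIs. Of 15 BMP pathway and Id genes 1 was higher and 2 lower. Imprinted growth genes were close, with Dlk1 at a ratio of 1.70 (1.61 to 1.78), H19 at 1.59 (1.52 to 1.66), Igf2 at 1.10 (1.03 to 1.19) and Mest as the 1 gene of 14 above 2-fold.

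Over all genes counted in this comparison 3.56% were at least 2-fold higher and 6.45% lower. Several of the lists below stood above those shares and others near them, and counts near those shares are not read as a result. Of 18 matricellular protein genes 5 were higher in the members and 2 lower, and of 10 small leucine-rich proteoglycans 3 and 1. Of 7 lipid and apolipoprotein genes 3 were higher (Apoe, Apod, Fabp4) and 1 lower (Fabp5). Of 8 stem and progenitor surface genes 1 was higher (Vcam1) and 3 were lower (Cd44, Thy1, Cd9). Of 10 Wnt pathway genes 3 were higher in the members (Sfrp1, Sfrp2, Wisp2) and none lower, and of 18 genes of metal binding and oxidant defence 4 were higher, among them Mt1 and Mt2, and 1 lower. Of 18 immediate early and stress genes, which respond to dissociation of tissue, 3 were higher (Fos, Zfp36, Socs3) and 2 lower (Klf2, Klf4). Of 17 contractile and cytoskeletal genes none was higher and 3 were lower, and of 21 tendon and skeletal transcription factors 1 was higher (Runx1) and 4 were lower (Sox5, Twist1, Meox1, Klf4). Of 80 ribosomal protein genes 1 was higher and 2 were lower, with a median log2 ratio of 0.24, and 6 mitochondrial transcripts had a median of -0.18.

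**Figure D3:**
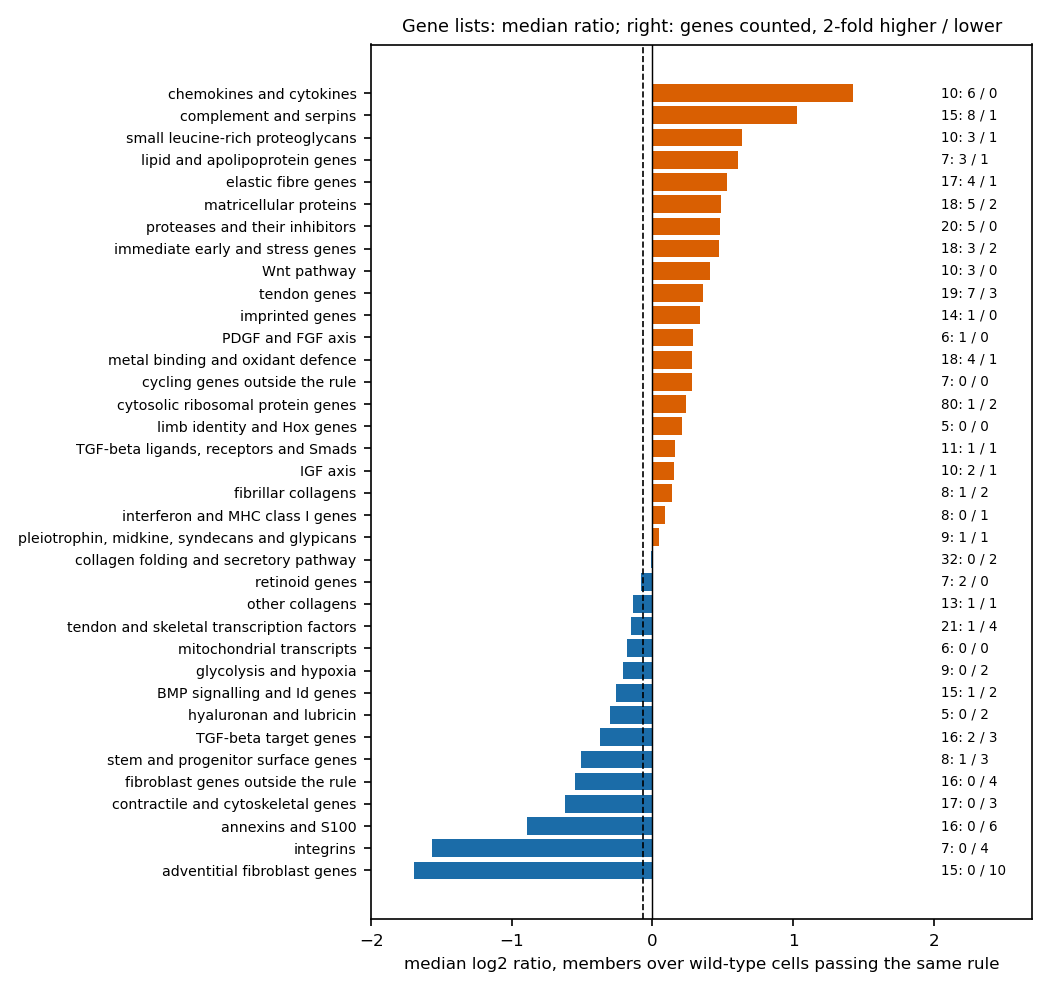
Median log2 ratio of the members over the wild-type cells of the same rule for each gene list with at least 5 genes counted, cell type markers left out (bars), with the median of all genes at -0.07 (dashed line). Numbers at the right give the genes counted and how many were at least 2-fold higher and lower, from 6 and 0 of 10 for chemokines and cytokines to 0 and 10 of 15 for adventitial fibroblast genes.

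Within the mutant library the members were set beside the Tnmd-keeping cells to ask what else goes with low Tnmd. Since the sets were cut on Tnmd, the values are a description. The 2 sets were close: of 4204 genes counted, 48 were at least 2-fold higher (1.14%) and 33 lower (0.785%) in the members. Tppp3 was 4.96-fold higher in the members (308 and 62.1 CPM), Lpl 2.77-fold, Gsn and Serpine2 2.41-fold each, Tmem100 2.29-fold and Nrp1 2.24-fold, and Fabp4 31.4-fold, on UMIs from 46 members. The lower genes included several of tendon matrix. Fmod was at 177 CPM in the members and 849 CPM in the Tnmd-keeping cells, Kera at 432 and 1232 CPM, Col11a1 at 81.6 and 298 CPM, Col12a1 at 196 and 427 CPM and Abi3bp at 165 and 391 CPM, and Prph was 6.17-fold, 1500015O10Rik 2.7-fold and Cpxm2 2.41-fold lower. Of 22 tendon genes 9 were at least 2-fold lower and none higher, and Igfbp2 and Rbp4 were among the lower genes outside that list. Eln, Cxcl14 and Dlk1 differed by less than 2-fold, with ratios of 1.35, 1.37 and 1.40.

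The 205 mutant Scx-high cells were further off, with 372 of 4857 genes at least 2-fold higher (7.66%) and 346 lower (7.12%) in the members. Dlk1, a Notch-like protein of immature mesenchyme, was 14.1-fold higher in the members (12.1 to 16.5), at 2657 and 188 CPM. Mgst1 was 13.6-fold higher, the ectonucleotidase Entpd2 13.1-fold, Tmem100 11.8-fold, Cxcl14 11.6-fold and Ly6c1 11.5-fold. Fmod was 14.2-fold lower, Cilp2 14.7-fold, the Wnt inhibitor Wif1 22.5-fold, Col2a1 32.0-fold and Col11a2 52.1-fold lower. Myog, Actc1 and Myoz2, genes of skeletal muscle, were also lower in the members, and 12 of the Scx-high cells held at least 5 UMIs of the muscle list. Of 23 tendon genes 14 were lower and 2 higher. Of 18 TGF-beta target genes 10 were lower, among them Ctgf, Tagln, Acta2, Fn1 and Lox, and none higher. The mural list, which holds Tagln and Acta2, moved with them, at 272 CPM in the members and 2214 CPM in the Scx-high cells. At least 5 UMIs of that list were held by 77 of the Scx-high cells, and the rule had limited other mural genes in the members. Eln was at 5119 CPM in these Scx-high cells and 4803 CPM in the members.

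Against the wild-type Scx-high cells, which carried the tendon genes at their highest collagen level, 865 of 4383 genes were at least 2-fold higher (19.7%) and 335 lower (7.64%) in the members. The median log2 ratio was 0.38. Centered on that median, 489 genes were higher and 547 lower, and with the 20 most abundant genes left out of the totals 550 and 483, so the excess of higher genes depended on the scaling. Dlk1 was 116-fold higher (95.7 to 143), at 2657 and 22.9 CPM, far beyond that shift. Serpine2 was 101-fold, Entpd2 62.5-fold, H19 47.4-fold, Ramp2 37.7-fold and Cygb 33.0-fold higher. The chondrogenic genes Ucma, Col11a2 and Col2a1 were 465-fold, 396-fold and 223-fold lower, Ucma on 1 UMI in the members with an interval of 83.1 to 18379. Car9 was 118-fold, Wif1 92.1-fold, Ooep 55.7-fold, Cilp2 50.8-fold and Angptl7 49.8-fold lower. Dlk1 was found in 54.6% of thinned members and 3.14% of thinned wild-type Scx-high cells, with 13% of mutant and 2.03% of wild-type immune cells as background.

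Gene lists repeated that distance. Over all genes counted 19.7% were at least 2-fold higher and 7.64% lower, a split that depended on the scaling. Of 15 imprinted genes counted against the wild-type Scx-high cells 12 were at least 2-fold higher and none lower, Igf2 at 898 and 36.2 CPM and Cdkn1c, an inhibitor of cell division, at 1777 and 349 CPM. Of 10 IGF genes 7 were higher and 1 lower, of 15 complement and serpin genes 13 and 0, and of 9 chemokine and cytokine genes 7 and 0. Of 23 tendon genes 2 were higher and 17 lower, and of 31 genes for collagen folding and secretion 1 was higher and 11 were lower. The members stood close to the wild-type cells of the same rule on the imprinted genes and apart from them on the complement and chemokine genes. These comparisons share the members, and no test of their difference was made.

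**Figure D4:**
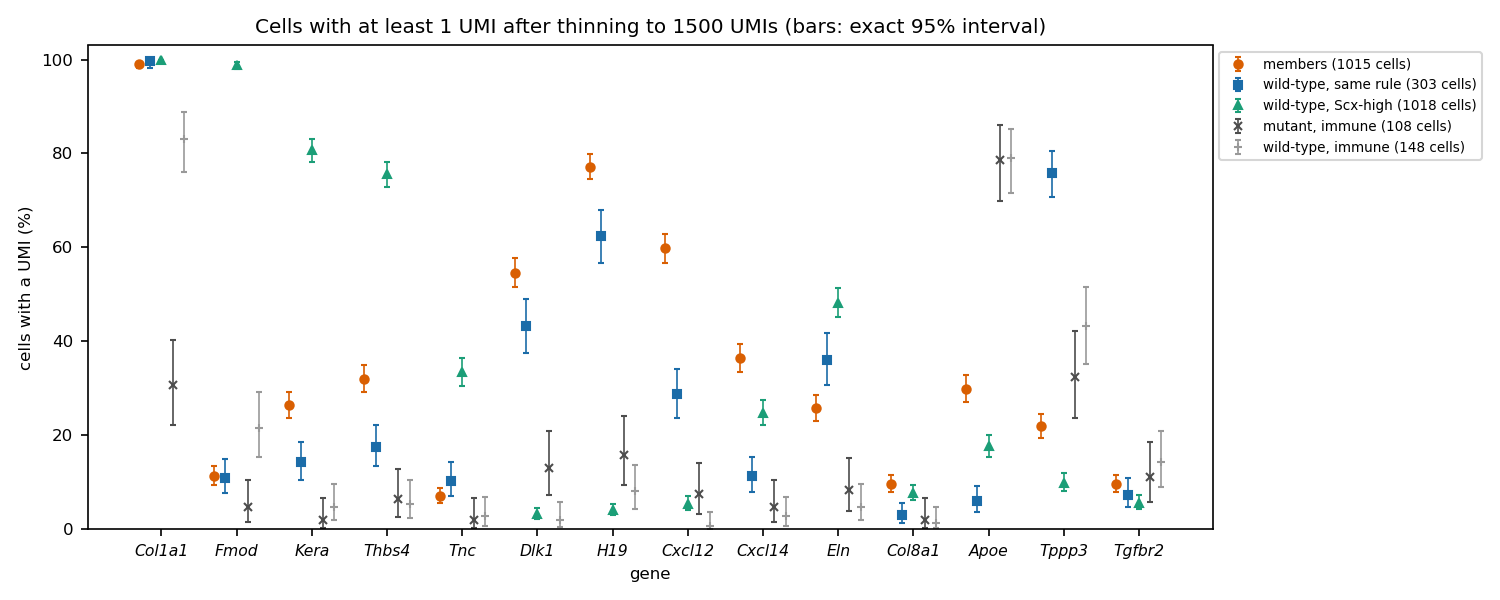
Share of cells with at least 1 UMI of 14 genes (vertical axis, percent) after each cell was thinned to 1500 UMIs, with exact 95% binomial intervals, in the members, in 2 wild-type sets and in the immune cells of both libraries as a background. Cxcl12 (59.8% and 28.7%) and Tppp3 (22.0% and 75.9%) part the members from the wild-type cells of the same rule, and Fmod (11.3% and 10.9%) does not. For Tppp3 immune cells may not give a background level.

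The members were not uniform. Among 2210 genes with a thinned mean of at least 0.1 UMI the variance was a median of 1.07 times the mean, close to counting noise, but it reached 64.3 for Eln, 40.3 for Pmp22, 31.4 for Fabp4, 25.1 for Mbp, 21.7 for Car3, 16 for Spp1, 10.4 for Dlk1, 9.38 for Mgp and 9.02 for C1qtnf3. Pmp22 and Mbp are myelin genes and Fabp4 and Car3 adipocyte genes. Mbp, Fabp4 and Car3 were each found in under 3% of thinned members, whereas Pmp22 was found in 49.9% and reached 198 thinned UMIs in 1 cell. Dlk1 and Mgp varied among many cells, with a UMI in 54.6% and 76.1% of thinned members, whereas most Eln UMIs were in few cells.

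K-means on 10 principal components divided the members into 4 groups, of which the larger 3 are named here by the leading gene found in at least 50% of a group's cells. The first 2 components held 2.75% and 1.70% of the variance, and the cells formed a continuum in which the Eln group reached farthest out. The genes of each group were those that formed it, so their values are a description. The Dlk1 group had 562 cells (48.9%), the S100a4 group 379 (33.0%), the Eln group 162 (14.1%) and the smallest group 47 (4.09%). Median depth was 2388.5, 2955, 3891.5 and 2582 UMIs in that order, so that the groups also differed in depth.

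In the Dlk1 group Dlk1 was at 5661 CPM against 557 CPM in the other members and was found in 88.6% of cells. Sfrp2, a secreted Wnt modulator, was 8.59-fold higher, Cpz 6.06-fold, the chemokine Cxcl1 5.01-fold, Srpx 4.47-fold, Entpd2 4.35-fold, Itm2a 4.07-fold and Lpl 4.02-fold. The imprinted genes H19, Igf2, Meg3 and Peg3 were highest in this group, at 4366, 1287, 6302 and 337 CPM. Fmod was at 41.4 CPM and Tnc at 5.18 CPM.

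The S100a4 group had the highest Lum (5072 CPM), Ly6a (1648 CPM), Mgp (4971 CPM) and Cxcl14 (1307 CPM). Prg4 (lubricin) led it with 178 CPM against 2.79 CPM in the other members, but was found in 44 cells. Barx2 was 9.60-fold higher, Spp1 9.02-fold in 36 cells, Lgals3 6.07-fold, S100a4 4.56-fold, Ly6c1 4.19-fold and Sned1 3.86-fold. Kera was highest in this group, at 665 CPM against 52 CPM in the Eln group, and Thbs4 was at 611 CPM against 1404 CPM in the Eln group.

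The Eln group had Eln at 23072 CPM against 270.1 CPM in the other members and a UMI in 96.3% of its cells. Col8a1 was at 1393 CPM against 17.9 CPM, C1qtnf3 at 3072 against 95 CPM, and Chad (chondroadherin), Ltbp2, Matn4, Tagln and Tnc (tenascin C) were 89.5-fold, 46.3-fold, 40.6-fold, 27.5-fold and 18.4-fold higher. Fmod was at 695 CPM and found in 61.1% of these cells, Lox at 793 CPM and Mfap4 at 4931 CPM, and Scx, limited by the rule, in 36.4%. Tnmd was lowest outside the smallest group, at 52.0 CPM. Most of the members' UMIs of Eln, Fmod, Tnc and Tagln were in this group, whereas Mgp, also on the elastic fibre list, was at 1803 CPM here and 4971 CPM in the S100a4 group.

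The smallest group was led by the adipocyte genes Cfd, Car3, Plin1, Sfrp5 and Fabp4, with Wfdc21 and Egfl8. Each of these 7 was found in 6 to 14 of its 47 cells. Col1a1 was at 3920 CPM and Lum at 812 CPM, the lowest of the 4 groups. The group stays unnamed and does not answer to the label.

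Cells of the other sets were assigned to the nearest group center. Of the 336 wild-type cells of the same rule 39.3% (34.0 to 44.7) fell to the Dlk1 group, 52.1% (46.6 to 57.5) to the S100a4 group and 5.06% (2.97 to 7.98) to the Eln group, against 48.9%, 33.0% and 14.1% of the members. Of the Tnmd-keeping mutant cells 39.8%, 38.3% and 21.8% did. Every cell had to fall to some group, and the assignment read library-wide differences along with those of the cells. Of the wild-type Scx-high cells 92.9% and of the mutant Scx-high cells 69.3% fell to the Eln group, as did 10.4% of the wild-type and 22.0% of the mutant cells kept out by the Pi16 limit.

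**Figure D5:**
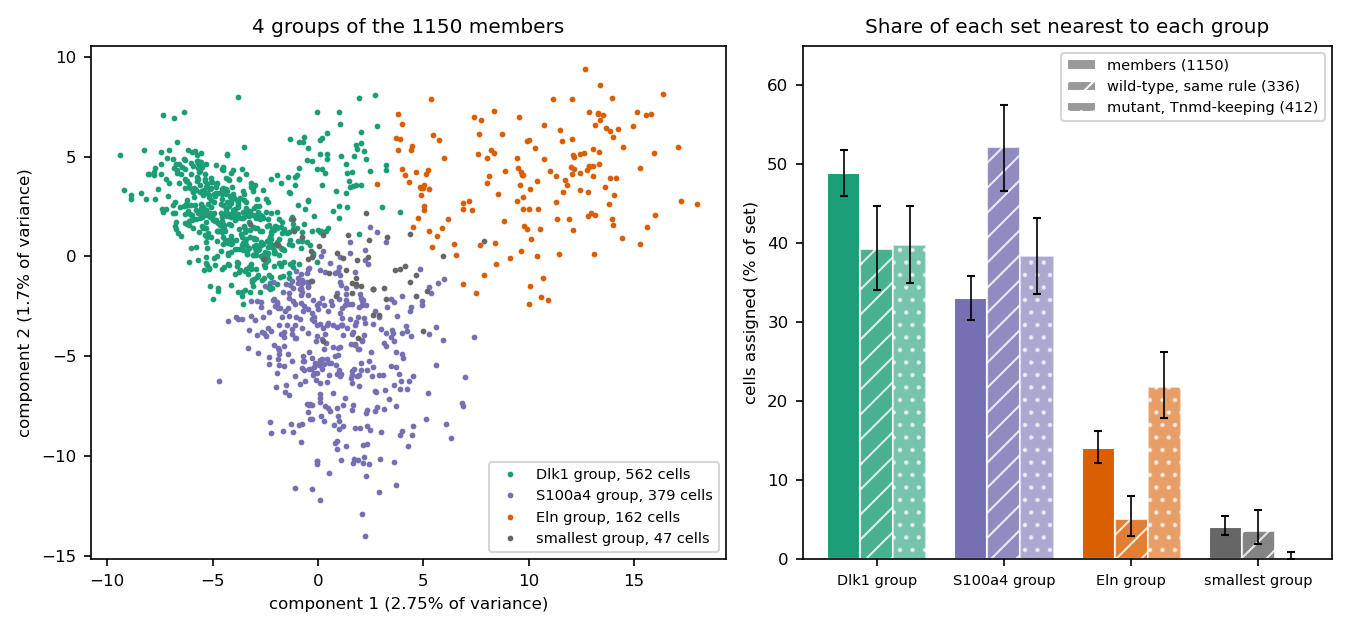
Left, the 1150 members on the first 2 principal components, colored by their K-means group. Right, the share of the members, of the 336 wild-type cells of the same rule and of the 412 Tnmd-keeping mutant cells nearest to each group center, with exact 95% binomial intervals; the Eln group holds 14.1%, 5.06% and 21.8%.

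Both libraries carried Y-linked RNA and had almost no Xist. Over all cells Xist had 0 UMIs in the mutant and 1 in the wild-type library, and the Y-linked genes Ddx3y and Eif2s3y had 337 and 554 UMIs in the mutant and 368 and 357 in the wild-type library. Members held neither Xist nor Tsix UMIs.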

How the data were processed

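Limb tendon cells from 1 wild-type and 1 mutant library were analysed. The authors prepared 10x Genomics 3′ libraries and made the deposited UMI counts, whole numbers not normalized, with Cell Ranger, aligned to mm10, keeping barcodes by total UMI count. The study's methods name version 2.0 with default settings and the submitters' processing notes 1.2.0. The libraries hold 2592 cells with 8250248 UMIs (mutant) and 2364 cells with 9451606 UMIs (wild-type), and all barcodes were kept. Scx counts can include reads of the ScxGFP reporter.

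For each set of cells the UMIs of a gene were added up and scaled to 1000000 (CPM). Ratios have exact conditional 95% intervals and shares exact Clopper-Pearson intervals. Single cells contribute unevenly, so the intervals are too narrow. A set without UMIs was given a floor of 3 counts over the set. Counted genes averaged 0.1 UMI or more in either set, and the 26 genes of the rule were left out. The text names the 12 largest ratios in each direction against the wild-type cells of the same rule, and the 8 largest otherwise, among genes averaging 0.5 UMI or more. It also names the 25 most abundant genes, the 8 leading genes of each group, the 10 most variable genes and list members with large ratios or levels. Some genes that this rule names are not reported here. Other genes were chosen after their values were seen. The members and the gene lists were chosen with earlier results of these data known. For shares, cells were thinned to 1500 UMIs, which left out 135 members and 33 wild-type cells of the same rule. Immune cells held at least 5 UMIs over 4 immune genes.

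Groups came from K-means (k = 4, 50 starts, seed 1) on log2 of 1 plus scaled counts of the 1000 most variable genes, with scaled values limited to 10. Scrublet, run through scanpy 1.11.5 at an expected rate of 2%, called 8 mutant and 26 wild-type cells, 2 of them members. They stayed in. Python 3.11.15, NumPy 2.4.6, SciPy 1.17.1 and scikit-learn 1.9.0 were used. Gene positions are from GENCODE M21 on GRCm38. The ratio and thinning steps were tested on simulated data. Alternatives changed the filters, the rule's limits, depth, scaling, weighting and the fold.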

Additional observations from a re-analysis of the deposited data

How the results depend on the processing

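No paired analysis was possible because each group is 1 library. The share of members was 44.4% and stayed within 43.6% to 45.8% with a filter on cells, without called doublets, with Scx under 10 per 10000, without the cycling limit and without cells carrying Schwann, adipocyte or muscle genes, an alternative added after seeing the data. It was 29.0% with 0 Tnmd UMIs, 41.8% with at least 10 marker UMIs and 54.3% with thinning before the rule.

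Counts of genes past 2-fold were 467 against the wild-type cells of the same rule, 81 against the Tnmd-keeping cells, 718 against the mutant and 1200 against the wild-type Scx-high cells. A mean of at least 0.5 UMI gave 141, 21, 192 and 316, a minimum of 10 UMIs over both sets 1860, 1062, 2490 and 3976, and 1.5-fold 1021, 292, 1444 and 2265. Thinning before the rule, which left fewer genes to count, gave 231 against the wild-type cells of the same rule, 395 against the mutant and 663 against the wild-type Scx-high cells. The other alternatives kept each count within 1.5 times.

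Alternatives were run for the ratios of 36 genes to the wild-type cells of the same rule and not for other single ratios. None of the 36 that was past 2-fold turned its direction under 12 alternatives. Ratios of Eln ran from 3.30 (thinned) to 9.95 (0 Tnmd UMIs) and of Col8a1 from 5.68 to 23.6 under the same settings, of C1qtnf3 from 3.63 (cells scaled to equal UMIs) to 11.3 (0 Tnmd UMIs), and of Igfbp2 from 2.82 (thinned) to 7.22. The last value came from leaving out the cell with the most UMIs of a gene, added after seeing the data. With 0 Tnmd UMIs Fabp4 was at 33.8, Lox at 4.60 and Fmod at 3.10, against 19.2, 2.77 and 1.97, and Ambn was at least 61-fold lower with thinning, against 275-fold. Ratios near 1 did turn: Igf2 was at 0.976 with 0 Tnmd UMIs and Col1a1 at 0.987 with thinning. The Eln group held 14.1% of members with 4 groups and 13.9% with 3. With 6 groups none was led by Eln, and the group with the highest Eln, led by Col8a1, held 11.4%. The Dlk1 group held 48.9% with 4 groups and 51.0% with 3, and no group was led by Dlk1 with 6, where groups led by 1500015O10Rik, Serpina3n and Tppp3 held 28.3%, 18.0% and 11.4%. Fmod was found in 11.3% of members thinned and 15.6% unthinned. Another thinning seed, also added later, kept 9 of the 10 most variable genes. With 1 library per genotype, depth narrows the counting intervals but not the uncertainty between animals.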
